A study of Schizosaccharomyces pombe with 12 samples.

Results

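The 10 genes described here are those through which fission yeast takes up phosphate and makes or imports thiamine, together with their activators. They were taken from the count table by identifier: pho1 (SPBP4G3.02), pho84 (SPBC8E4.01c), tgp1 (SPBC1271.09), pho7 (SPBC27B12.11c), pho4 (SPBC428.03c), nmt1 (SPCC1223.02), thi2 (SPBC26H8.01), thi4 (SPAC23H4.10c), thi9 (SPAC9.10) and thi1 (SPAC1486.10). They are 10 of the 7268 features in the table. The rule picks them by identifier and not by a measured value, but the 10 were chosen with earlier results of these data known. All 10 passed the filter on low counts, and the lowest count of any of them in a library was 46, for nmt1 in wild-type cells at 30°C.

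When phosphate is scarce, fission yeast secretes the acid phosphatase Pho1, imports phosphate through the transporter Pho84 and takes up glycerophosphodiesters through Tgp1. The transcription factor Pho7 activates these genes, while in phosphate-rich medium a long non-coding RNA transcribed from upstream of each of them (prt for pho1, prt2 for pho84, nc-tgp1 for tgp1) keeps it low by reading into its promoter. Thiamine, the vitamin from which the cofactor thiamine pyrophosphate is made, represses the genes of its own synthesis and import. The activator Thi1 turns these genes on when thiamine is missing. The acid phosphatase gene pho4 belongs to the thiamine-repressed genes in fission yeast in spite of its name, and nmt1 ("no message in thiamine") supplies one of the most used repressible promoters in this organism.

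RNA from lsd1-ΔHMG (labelled lsd1dHMG), set1Δ (set1d) and wild-type (WT) cells of Schizosaccharomyces pombe was sequenced at 30°C and after 2 h at 37°C. These 6 conditions hold 2 libraries apiece, so the data are 12 libraries. In lsd1-ΔHMG the histone demethylase Lsd1 lacks its C-terminal part with the HMG box, a DNA-binding domain, in a strain that carries an affinity tag on Lsd1. In set1Δ the only enzyme that methylates histone H3 at lysine 4 is deleted. The methods describe the replicates of a genotype as independently derived, and the composition of the medium, and with it the phosphate and thiamine supplied, is not given in the sources used here. In these bulk cultures a difference in the number of cells that express a gene and in the RNA per cell cannot be told apart.

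The labels were checked before the 10 genes were compared. Totals ran from 27642384 to 34843653 counts per library. Levels are given below as CPM, the counts a gene would have in a normalized library of 1000000. The deleted gene set1 was at 14.3 to 16.2 CPM in the 4 set1Δ libraries, against 76.7 to 105 CPM in the 4 wild-type libraries. A count over the whole of lsd1 does not test for its truncation. The heat chaperone gene hsp16 took 0.534% and 0.669% of all counts in the wild-type libraries labelled 37°C and 3.78% and 3.49% in those labelled 30°C, which goes against those labels. In set1Δ it took 1.61% and 2.05% at 37°C, against 0.0633% and 0.0548% at 30°C. In lsd1-ΔHMG it took 0.427% and 0.550% at 37°C, against 0.233% and 0.222% at 30°C, a smaller rise than in set1Δ. The wild-type libraries stood apart in housekeeping genes as well. The actin gene act1, named after its values were seen, was at 551 to 930 CPM in lsd1-ΔHMG, 669 to 933 CPM in set1Δ, and 148 to 263 CPM in wild-type. For the glycolytic gene tdh1, chosen in the same way, the ranges were 2516 to 3192 CPM in lsd1-ΔHMG, 1723 to 2910 CPM in set1Δ, and 42.5 to 580 CPM in wild-type. Each comparison with wild-type below carries these differences, whose part in it was not tested, while the comparisons between the mutants and between temperatures within a mutant set no wild-type library against them.

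To see what the 10 genes share in sequence, the 250 bases before each annotated gene start were read from the RefSeq genome ASM294v3, in which all 10 were found by identifier. The counts were made on ASM294v2, so no coordinates are given. pho1 and pho84 (plus strand) and tgp1, pho7 and pho4 (minus strand) lie on chromosome II with thi2 (plus strand). thi4, thi9 and thi1 lie on the plus strand of chromosome I and nmt1 on the plus strand of chromosome III. Of the 10 windows, 7 are printed 5′ to 3′ on the strand of the gene. All but pho84 hold the Pho7 motif, or TATAAA or TATTTAA near the start. The tatatata near the start of pho84 is another TATA form, which was not searched for. Capitals mark a match to the Pho7 motif, to TATAAA or to TATTTAA, searched on both strands.

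pho1: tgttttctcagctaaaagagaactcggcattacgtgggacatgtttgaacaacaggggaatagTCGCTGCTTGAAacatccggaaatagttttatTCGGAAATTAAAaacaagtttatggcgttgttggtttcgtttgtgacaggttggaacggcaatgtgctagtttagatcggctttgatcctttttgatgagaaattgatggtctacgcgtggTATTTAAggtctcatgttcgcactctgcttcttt
tgp1: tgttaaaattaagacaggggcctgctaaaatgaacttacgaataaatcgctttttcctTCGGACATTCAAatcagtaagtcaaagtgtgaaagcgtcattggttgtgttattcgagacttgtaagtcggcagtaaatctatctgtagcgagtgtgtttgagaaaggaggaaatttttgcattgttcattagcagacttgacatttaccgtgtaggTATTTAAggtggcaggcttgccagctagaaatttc
pho84: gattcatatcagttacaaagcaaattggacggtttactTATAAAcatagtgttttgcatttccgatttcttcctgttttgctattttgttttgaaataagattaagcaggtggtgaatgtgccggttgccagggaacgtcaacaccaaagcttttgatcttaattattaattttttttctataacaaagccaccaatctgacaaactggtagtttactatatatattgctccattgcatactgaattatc
pho4: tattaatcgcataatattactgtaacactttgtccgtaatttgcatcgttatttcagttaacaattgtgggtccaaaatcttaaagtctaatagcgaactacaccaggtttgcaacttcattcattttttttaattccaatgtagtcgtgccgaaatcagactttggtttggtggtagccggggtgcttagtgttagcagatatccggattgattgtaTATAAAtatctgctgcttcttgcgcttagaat
nmt1: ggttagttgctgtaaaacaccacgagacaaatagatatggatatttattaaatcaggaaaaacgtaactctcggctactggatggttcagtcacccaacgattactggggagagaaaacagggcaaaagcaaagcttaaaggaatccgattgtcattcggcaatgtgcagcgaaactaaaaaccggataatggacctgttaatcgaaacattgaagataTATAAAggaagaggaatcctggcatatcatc
thi2: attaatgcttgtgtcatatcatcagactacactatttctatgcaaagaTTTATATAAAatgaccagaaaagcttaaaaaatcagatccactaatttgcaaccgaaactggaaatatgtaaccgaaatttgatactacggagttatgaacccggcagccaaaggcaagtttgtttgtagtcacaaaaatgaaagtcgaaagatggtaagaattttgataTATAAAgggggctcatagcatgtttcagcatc
thi4: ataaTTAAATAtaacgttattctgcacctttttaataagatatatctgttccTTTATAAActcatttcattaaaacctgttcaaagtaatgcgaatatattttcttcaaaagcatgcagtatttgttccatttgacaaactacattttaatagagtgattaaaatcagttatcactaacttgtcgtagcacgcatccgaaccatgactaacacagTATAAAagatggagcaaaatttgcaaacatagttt

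The Pho7 motif was found in the windows of pho1 and tgp1 and in none of the other 8. In pho1 its matches began 187 and 155 bases before the start, and in tgp1 the match began 192 bases before it. Of 5105 windows of the same length before protein-coding genes, 99 (1.94%) held the motif. How this motif was defined is not given here. If it was drawn from sites in pho1 and tgp1, its matches there were fixed in advance. The share of 1.94% is therefore no test of these matches. The lack of a match in the pho84 window likewise does not test whether Pho7 acts on pho84. TATAAA was found in 6 of the 10 windows, against 2266 of the 5105 (44.4%). In pho4, nmt1, thi2 and thi4 a match lay on the strand of the gene and began 32, 31, 32 and 35 bases before the start. A match on that strand beginning 25 to 40 bases before the start, a range set after these positions were seen, was present in 224 of the 5105 windows (4.39%). These 4 are genes that thiamine is known to repress. Farther upstream in thi2 and thi4, matches on the 2 strands overlapped each other. The sequence TATTTAA, added to the search after the windows were read, began 34 bases before the start of pho1 and 35 bases before that of tgp1, and on the strand of the gene it lay in that range in 33 of the 5105 windows (0.646%). The window of thi1, the gene of the activator, held no match to any of the 3 sequences. Other TATA forms, such as tatata near the start of pho84 and of thi9, were not searched for. Which genes are grouped by a TATA match here therefore depends on the strings chosen. A match is a likeness of letters and does not show that a protein binds there.

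**Figure D1:**
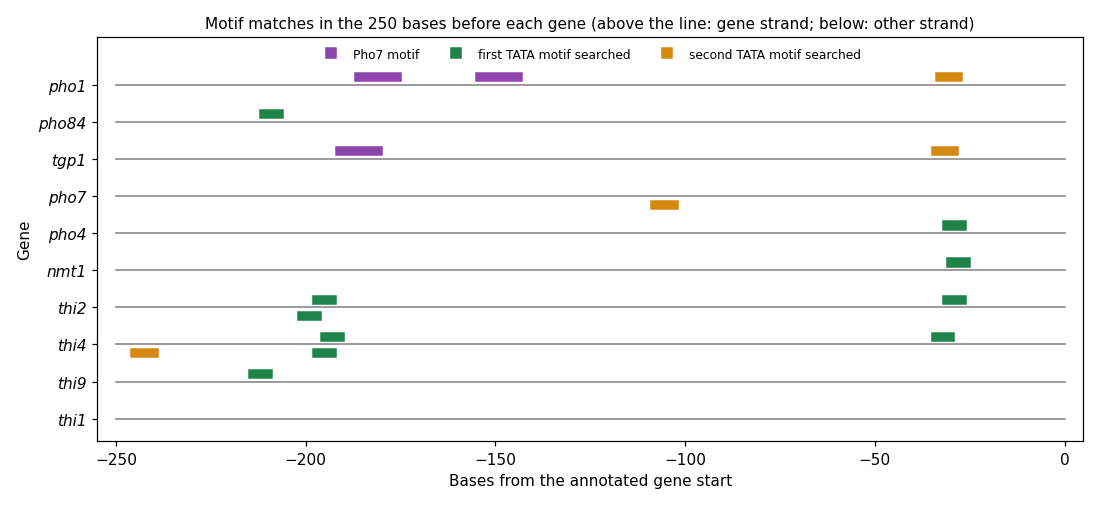
Positions of the Pho7 motif and of the 2 TATA motifs (TATAAA, then TATTTAA) in the 250 bases before the 10 genes. Each row is a gene and the horizontal axis gives the distance in bases from its annotated start. One of these 2 strings stands on the gene's strand 31 to 35 bases before the start in pho1, tgp1, pho4, nmt1, thi2 and thi4. Other TATA forms, such as tatata near the start of pho84 and thi9, were not searched for. The Pho7 motif appears only in pho1 and tgp1, and how it was defined is not given here.

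The first question was how the truncation of Lsd1 changed the 10 genes. A gene was called where edgeR's quasi-likelihood test gave an adjusted p under 0.05 and the groups lay 1 or more apart on the log2 scale. At 30°C 6 of the 10 genes were called higher in lsd1-ΔHMG than in wild-type and none lower, where 24.4% of the 6904 features tested were called higher. At 37°C 6 were again called higher and none lower, against 25.4% of all features. They were pho1, pho84, tgp1, pho7 and the thiamine-repressed genes pho4 and nmt1 at both temperatures. The median log2 fold change of the 10 was 1.32 at 30°C and 2.41 at 37°C, while that of all features was -0.11 and -0.06. All 10 are protein-coding. Of the 5104 protein-coding genes tested, 1471 were called higher at 30°C and 1569 at 37°C, with medians of 0.06 and 0.18.

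The secreted acid phosphatase gene pho1 showed the largest difference. It was at 1518 and 1474 CPM in lsd1-ΔHMG at 30°C, against 101 and 107 CPM in wild-type. At 37°C it was at 1641 and 1361 CPM in lsd1-ΔHMG, against 46.5 and 47.0 CPM in wild-type. The lsd1-ΔHMG libraries lay far above every wild-type library, with a log2 fold change of 3.85 at 30°C (standard error 0.13, adjusted p = 3e-11) and of 5.005 at 37°C (standard error 0.13, adjusted p = 8.5e-12).

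The transporter genes followed in the same direction. The glycerophosphodiester transporter gene tgp1 was at 85.7 and 83.5 CPM in lsd1-ΔHMG at 30°C, against 16.4 and 15.8 CPM in wild-type, and at 70.9 and 70.6 CPM at 37°C, against 4.04 and 3.90 CPM. Its log2 fold change was 2.39 at 30°C (standard error 0.095, adjusted p = 9.5e-11) and 4.15 at 37°C (standard error 0.11, adjusted p = 5.8e-12). The phosphate transporter gene pho84 was at 1000 and 1003 CPM in lsd1-ΔHMG at 30°C, against 388 and 438 CPM in wild-type. At 37°C its values were 1832 and 2101 CPM in lsd1-ΔHMG, against 355 and 354 CPM in wild-type. The groups did not overlap at either temperature for these genes, and pho84 differed by a log2 fold change of 1.28 at 30°C (adjusted p = 4.8e-08) and 2.47 at 37°C (adjusted p = 9.9e-11).

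The activator gene pho7, whose product binds the motif marked in the pho1 and tgp1 windows, was itself higher in lsd1-ΔHMG. Its level was 69.5 and 59.7 CPM at 30°C, against 14.8 and 13.8 CPM in wild-type, and 73.1 and 57.6 CPM at 37°C, against 8.88 and 8.61 CPM. The log2 fold change was 2.17 at 30°C (standard error 0.14) and 2.90 at 37°C (standard error 0.15). The thiamine-repressed phosphatase gene pho4 was at 39.2 and 39.0 CPM in lsd1-ΔHMG at 30°C, against 15.4 and 15.0 CPM in wild-type, and at 54.5 and 42.6 CPM at 37°C, against 9.47 and 9.67 CPM. It rose by a log2 fold change of 1.37 at 30°C (standard error 0.15) and 2.34 at 37°C (standard error 0.15).

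Beside the thiamine-repressed pho4, nmt1 alone was called in lsd1-ΔHMG among the 5 genes nmt1, thi2, thi4, thi9 and thi1. nmt1 encodes the enzyme that makes the pyrimidine part of thiamine. It was at 18.1 and 18.9 CPM in lsd1-ΔHMG at 30°C, against 1.71 and 1.99 CPM in wild-type, and at 22.6 and 22.2 CPM at 37°C, against 2.08 and 1.97 CPM. The log2 fold change was 3.32 at 30°C (standard error 0.16, adjusted p = 4.3e-10) and 3.47 at 37°C (standard error 0.16, adjusted p = 1.2e-10). The remaining 4 of these genes had log2 fold changes of 0.20 to 0.80 at 30°C and of -0.05 to 0.53 at 37°C, and none was called.

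In set1Δ at 30°C 3 of the 10 genes were called higher (pho1, pho7 and nmt1) and none lower, where 21.1% of all features were called higher. Both mutants were set against the same wild-type libraries. At 37°C 6 were called higher (pho1, pho84, tgp1, pho7, pho4 and nmt1) and 1 lower (thi1), against 18.6% of all features called higher and 5.55% called lower. The median log2 fold change of the 10 was 0.08 at 30°C, below the 0.22 of all features, and 1.69 at 37°C, where that of all features was 0.01.

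At 30°C pho1 stood at 488 and 467 CPM in set1Δ, against 101 and 107 CPM in wild-type, and at 37°C at 865 and 696 CPM, against 46.5 and 47.0 CPM. All set1Δ libraries were above all wild-type libraries, by a log2 fold change of 2.20 at 30°C (standard error 0.12, adjusted p = 1.2e-09) and 4.06 at 37°C (standard error 0.13, adjusted p = 6.4e-11). The regulator gene pho7 was at 34.2 and 33.0 CPM in set1Δ at 30°C, against 14.8 and 13.8 CPM in wild-type, and at 62.3 and 50.2 CPM at 37°C, against 8.88 and 8.61 CPM. Its groups were apart at both temperatures, with log2 fold changes of 1.23 and 2.68 at 30°C and 37°C. For nmt1 the values were 4.64 and 3.67 CPM in set1Δ at 30°C, against 1.71 and 1.99 CPM in wild-type, and 8.03 and 6.94 CPM at 37°C, against 2.08 and 1.97 CPM. The increase in nmt1 had a log2 fold change of 1.16 at 30°C (standard error 0.18, adjusted p = 4.9e-05) and 1.88 at 37°C (standard error 0.16, adjusted p = 1.4e-07).

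The transporter gene tgp1 was not higher in set1Δ at 30°C. It was at 13.3 and 12.8 CPM in set1Δ, against 16.4 and 15.8 CPM in wild-type, and this difference, with a log2 fold change of -0.31, was not called. At 37°C it was at 27.6 and 25.1 CPM in set1Δ, against 4.04 and 3.90 CPM in wild-type, a log2 fold change of 2.73 (standard error 0.11, adjusted p = 1.3e-10). pho84 was at 511 and 493 CPM in set1Δ at 30°C, against 388 and 438 CPM in wild-type, and was not called. At 37°C it was called, at 1079 and 925 CPM in set1Δ, against 355 and 354 CPM in wild-type. The values of pho4 were 30.4 and 30.2 CPM in set1Δ at 30°C, against 15.4 and 15.0 CPM in wild-type, a log2 fold change of 0.998 just under the limit, and 50.7 and 37.5 CPM at 37°C, against 9.47 and 9.67 CPM, a log2 fold change of 2.20.

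The gene of the activator Thi1 was the only one of the 10 called lower in a mutant. At 37°C thi1 was at 74.6 and 63.5 CPM in set1Δ, against 153 and 140 CPM in wild-type, a log2 fold change of -1.09 (standard error 0.094, adjusted p = 1.5e-07). With the wild-type libraries labelled 30°C as the reference, an alternative added after hsp16 was seen, its log2 fold change was 0.41, so its direction rests on which wild-type libraries are used. At 30°C thi1 was at 32.3 and 31.7 CPM in set1Δ, against 52.0 and 52.0 CPM in wild-type, which did not reach the limit. The thiazole synthesis gene thi2, the bifunctional condensing enzyme gene thi4 and the thiamine transporter gene thi9 had log2 fold changes in set1Δ between -0.39 and -0.12, and none was called at either temperature.

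**Figure D2:**
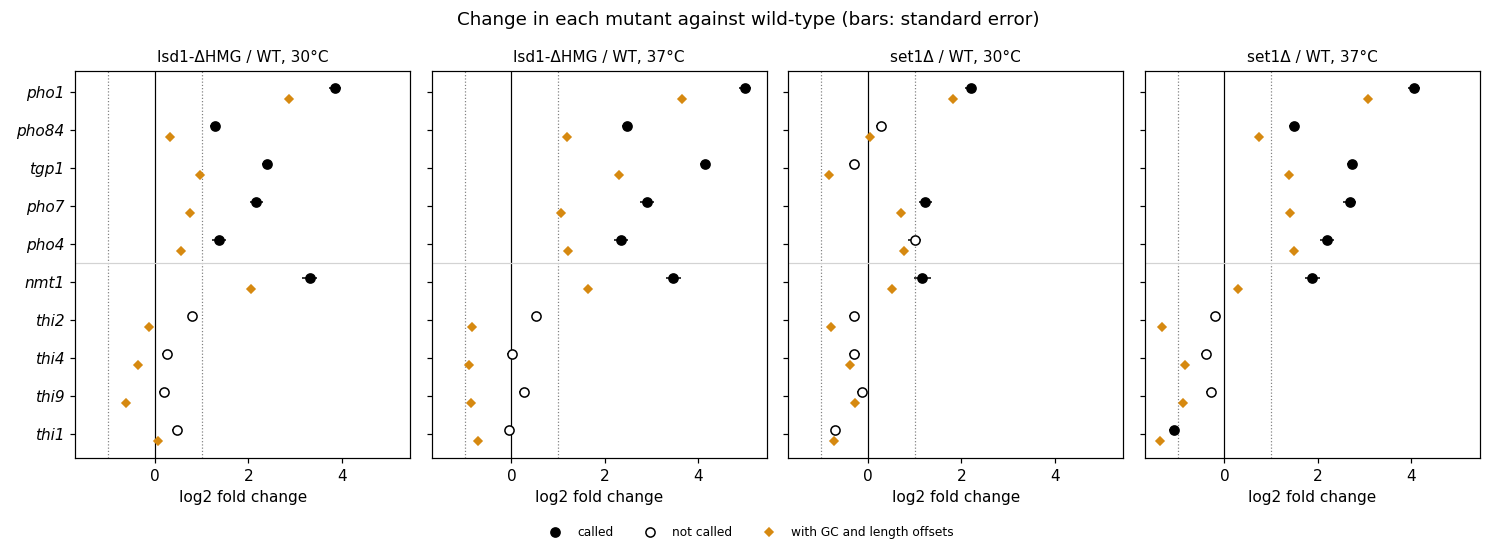
Log2 fold change of the 10 genes in each mutant against wild-type at 30°C and 37°C (horizontal axis, bars are standard errors). Filled circles were called, open circles were not, and diamonds give the value after the GC and length correction. In lsd1-ΔHMG pho1, pho84, tgp1, pho7, pho4 and nmt1 lie right of 1 at both temperatures, while the thi genes lie left of 1. The diamonds lie left of nearly all circles.

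The calls depended in part on which wild-type libraries were used. With the wild-type libraries of the other temperature label as the reference, the same 6 genes were called higher in lsd1-ΔHMG at 30°C with thi1 called lower, and 9 were called higher at 37°C (thi2, thi4 and thi1 in addition). In set1Δ at 30°C 5 were then called higher (tgp1 and pho4 in addition) and 2 lower (thi4 and thi1). In set1Δ at 37°C 5 were called higher, and tgp1, with a log2 fold change of 0.70, was not. The share of all features called with this reference is not given here. The counts made with it, here and for the gene lists further below, therefore have no background beside them.

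Correcting for GC content and gene length removed more of the calls. The 10 genes hold 36.8% to 43.4% GC, where the median of the tested protein-coding genes was 36.8%. With offsets fitted to the trend of each library along both (the GC and length correction), 2 of the 10 (pho1 and nmt1) were called higher in lsd1-ΔHMG at 30°C and 6 at 37°C. In set1Δ 1 gene (pho1) was called higher at 30°C, and at 37°C 4 were called higher (pho1, tgp1, pho7 and pho4) and 2 lower (thi1 and thi2). Corrected, pho1 differed on the log2 scale by 2.88 at 30°C and 3.65 at 37°C in lsd1-ΔHMG, and by 1.82 at 30°C and 3.07 at 37°C in set1Δ. For nmt1 in set1Δ the corrected values were 0.51 and 0.28. The share of all features called higher after the correction was, for lsd1-ΔHMG, 16.5% at 30°C and 15.9% at 37°C. For set1Δ this share was 14.7% at 30°C and 12.8% at 37°C.

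Next, the mutants were compared with each other directly. At 30°C 5 of the 10 genes were called higher in lsd1-ΔHMG than in set1Δ (pho1, tgp1, nmt1, thi2 and thi1) and none lower, against 19.4% of all features called higher. At 37°C 3 were called higher (tgp1, nmt1 and thi1), against 12% of all features, and none lower. The groups differed most in tgp1, at 85.7 and 83.5 CPM in lsd1-ΔHMG and 13.3 and 12.8 CPM in set1Δ at 30°C, a log2 fold change of 2.70 (standard error 0.098, adjusted p = 2.3e-11). At 37°C tgp1 differed by a log2 fold change of 1.43 (adjusted p = 1.2e-08).

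The thiamine gene nmt1 was higher in lsd1-ΔHMG than in set1Δ by a log2 fold change of 2.15 at 30°C (standard error 0.15, adjusted p = 8.9e-09) and 1.58 at 37°C (standard error 0.14, adjusted p = 1.9e-07). For pho1 the log2 fold change was 1.65 at 30°C and 0.94 at 37°C, where it stayed under the limit. thi1 was at 77.3 and 66.5 CPM in lsd1-ΔHMG at 30°C, against 32.3 and 31.7 CPM in set1Δ, and at 145 and 139 CPM at 37°C, against 74.6 and 63.5 CPM. Its libraries were apart at both temperatures, with log2 fold changes of 1.17 and 1.04. The thiazole enzyme gene thi2 was at 83.2 and 75.6 CPM in lsd1-ΔHMG at 30°C, against 36.9 and 37.1 CPM in set1Δ, a log2 fold change of 1.10. After the GC and length correction pho1, tgp1 and nmt1 were called at 30°C, and nmt1 alone at 37°C. The shares of all features called after the correction, or with a library left out, are not given here for the comparisons between the mutants. The count at 37°C was 5 when replicate 1 of set1Δ at 37°C was left out.

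The change with temperature was then followed within each strain. In lsd1-ΔHMG none of the 10 genes was called at 37°C against 30°C, where 14.8% of all features were called in either direction. At an unadjusted p under 0.05 from edgeR, 8 of the 10 differed, as did 4924 of the 6904 features tested. DESeq2 and limma-voom called 0 of the 10 as well. pho84 was at 1832 and 2101 CPM at 37°C, against 1000 and 1003 CPM at 30°C, and thi1 at 145 and 139 CPM, against 77.3 and 66.5 CPM. Their log2 fold changes of 0.97 and 0.98 were just under the limit, and either replicate of 37°C or replicate 1 of 30°C left out took 1 gene past it. pho1 had a log2 fold change of 0.01.

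In set1Δ 3 genes were called higher at 37°C than at 30°C (tgp1, thi4 and thi1), against 11.4% of all features, and all 10 log2 fold changes were above 0, from 0.46 to 1.11. tgp1 was at 27.6 and 25.1 CPM at 37°C, against 13.3 and 12.8 CPM at 30°C, and thi4 was at 81.3 and 70.9 CPM, against 41.2 and 34.5 CPM. Both lay on the limit, with log2 fold changes of 1.01 (standard error 0.097 for tgp1 and 0.11 for thi4). The number of genes called was 0 after the GC and length correction or when replicate 1 of set1Δ at 37°C was dropped, and 1 when replicate 2 of set1Δ at 30°C was dropped. It was 9 with library totals in place of TMM factors, where 2008 of the 6904 features tested were called higher, against 786 in the report's fit. The TMM factors were 0.76 and 0.75 for the set1Δ libraries at 30°C, and 1.05 and 1.08 for those at 37°C.

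In wild-type cells, whose temperature labels hsp16 goes against, 2 genes were called higher in the libraries labelled 37°C (thi4 and thi1) and 2 lower (pho1 and tgp1), against 5.55% of all features called higher and 15.9% called lower. tgp1 was at 4.04 and 3.90 CPM at 37°C, against 16.4 and 15.8 CPM at 30°C, a log2 fold change of -2.02 (standard error 0.11, adjusted p = 2.4e-09). The value of pho1 was -1.15 (standard error 0.12, adjusted p = 1.1e-06). thi1 was at 153 and 140 CPM at 37°C, against 52.0 and 52.0 CPM at 30°C, and thi4 was at 102 and 97.5 CPM, against 48.4 and 44.2 CPM. The log2 fold change was 1.495 for thi1 and 1.11 for thi4, and these pairs did not overlap. The GC and length correction took pho1 (-0.69) out of the calls and brought thi2 (1.21) and nmt1 (1.01) in.

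**Figure D3:**
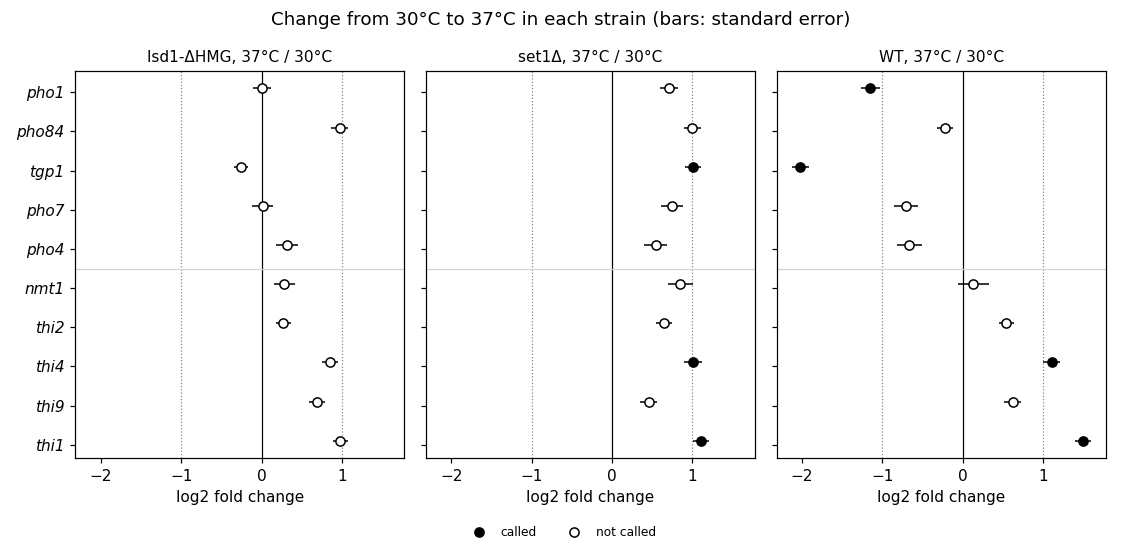
Log2 fold change of the 10 genes at 37°C against 30°C in lsd1-ΔHMG, set1Δ and wild-type (horizontal axis, bars are standard errors, filled circles were called). The thi genes lie right of 0 in all 3 strains, while pho1 and tgp1 lie left of -1 in wild-type only, whose temperature labels hsp16 goes against.

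Whether the difference between mutant and wild-type changed with temperature was tested directly. By the labels, 3 of the 10 genes were called for lsd1-ΔHMG (tgp1, pho84 and pho1), all with a larger difference at 37°C, against 12.1% of all features called higher in this test. Those called for set1Δ were pho1, pho84, tgp1, pho7 and pho4, 5 of the 10, again with the larger difference at 37°C, against 18.8% of all features. None was called lower in either test. For tgp1 in set1Δ the log2 change was 3.03 (standard error 0.15, adjusted p = 8.4e-10). These calls rest on the temperature labels of the wild-type libraries, which hsp16 goes against. With the wild-type libraries of the other label in each comparison, the change for lsd1-ΔHMG was -2.28 for tgp1, -1.15 for pho1 and 0.75 for pho84, and that for set1Δ was -1.01 for tgp1, -0.44 for pho1, -0.12 for pho4, 0.03 for pho7 and 0.78 for pho84. None of the 8 was then called in the direction given by the labels, and the genes called higher were thi4, thi9 and thi1 in both mutants and thi2 in set1Δ. After the GC and length correction tgp1 was called for lsd1-ΔHMG, and pho1 and tgp1 for set1Δ. No share of all features stands beside these corrected counts or the counts below with a library left out. The count for set1Δ was 3 when replicate 1 of set1Δ at 37°C was dropped. The count for lsd1-ΔHMG was 2 when replicate 1 or 2 of set1Δ at 30°C or replicate 1 of set1Δ at 37°C was dropped.

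Across the 6 conditions, pho1 spanned 32.1-fold between its lowest and highest condition mean, tgp1 21.3-fold and nmt1 12.12-fold. pho84, pho7 and pho4 spanned 5.07-fold to 7.47-fold, thi1 4.58-fold, and thi2, thi4 and thi9 2.02-fold to 2.64-fold. As levels per length, pho1 was the highest of the 10 at 970 CPM per kilobase in lsd1-ΔHMG at 37°C, followed by pho84 at 937, while nmt1 in wild-type at 30°C was the lowest at 1.48.

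The order of the conditions differed between the groups of genes. For pho1, tgp1, pho7 and nmt1 both lsd1-ΔHMG conditions were at the top and both wild-type conditions at the bottom, except that tgp1 in set1Δ at 30°C lay below wild-type at 30°C. The lsd1-ΔHMG conditions overlapped with each other for pho1 and pho7, and the wild-type conditions did so for nmt1. For pho7, set1Δ at 37°C overlapped with both lsd1-ΔHMG conditions. pho84 in set1Δ at 37°C (1079 and 925 CPM) overlapped with lsd1-ΔHMG at 30°C, and pho4 in set1Δ at 37°C overlapped with both lsd1-ΔHMG conditions. For thi4, lsd1-ΔHMG at 37°C and wild-type at 37°C shared the top place and overlapped, and the same pair overlapped for thi1, with set1Δ at 30°C at the bottom of both. thi2 and thi9 were highest in lsd1-ΔHMG at 37°C and lowest in set1Δ at 30°C, and of their neighbouring conditions only set1Δ at 37°C and lsd1-ΔHMG at 30°C overlapped, for thi9.

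**Figure D4:**
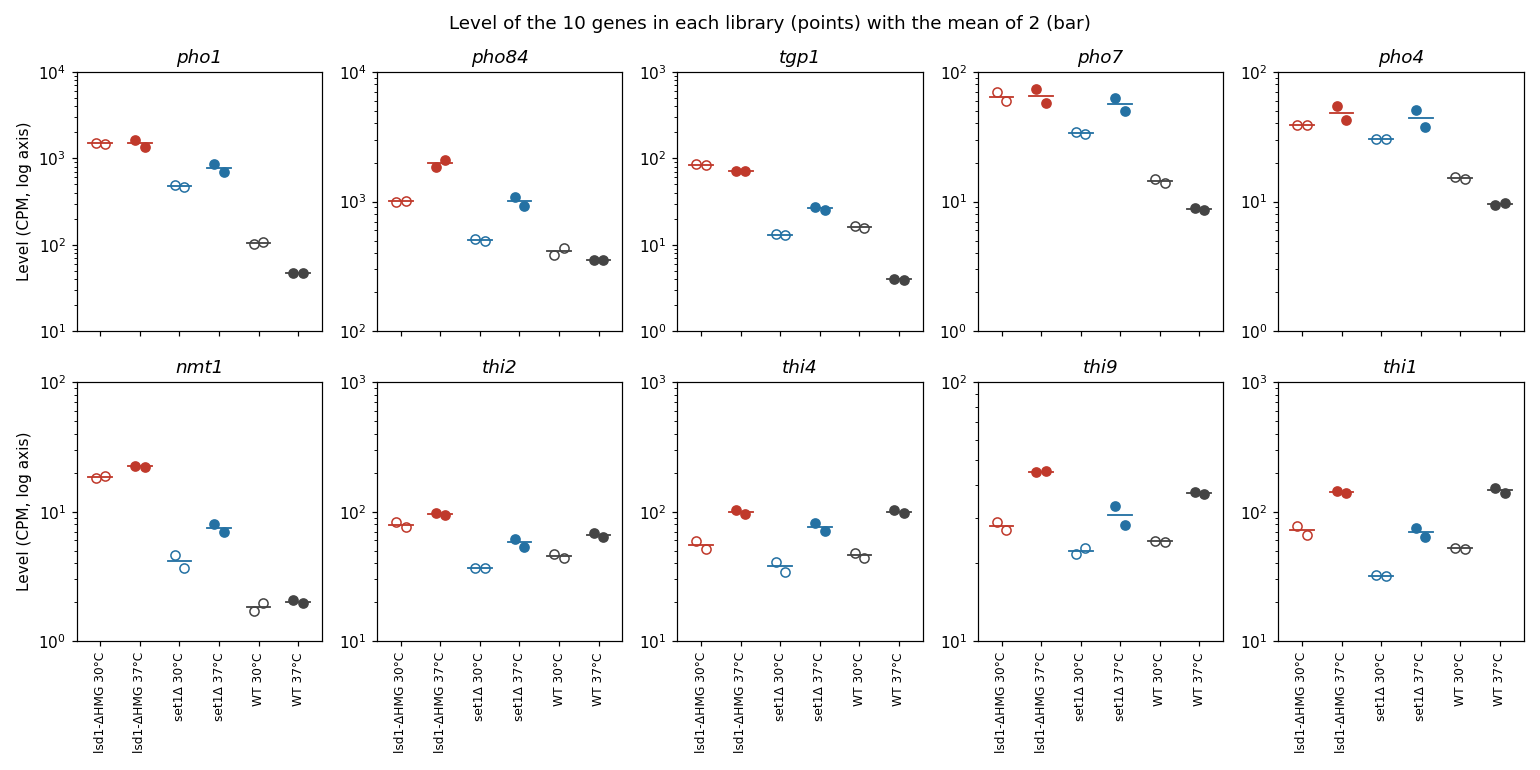
Level of each of the 10 genes in the 12 libraries, as CPM on a logarithmic axis, by condition. Points are libraries, bars the mean of 2, open points 30°C and filled points 37°C. At each temperature pho1, pho84, tgp1, pho7, pho4 and nmt1 stand highest in lsd1-ΔHMG and lowest in wild-type, with set1Δ between them except for tgp1 at 30°C. thi4, thi9 and thi1 stand higher at the label 37°C than at 30°C in each strain, a label that hsp16 goes against in wild-type.

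Some of the 10 genes overlap annotated neighbours. In the reference, nc-pho1 (the RNA prt) runs over 91.3% of pho1 on its own strand and prt2 over 89.0% of pho84, and neither identifier, nor that of nc-tgp1, is among the rows used here, so reads of these RNAs within the genes could be counted with them. A row under SPBC8E4.02c, which RefSeq lists as a synonym of prt2, was at 169 to 198 CPM in lsd1-ΔHMG, 153 to 238 CPM in set1Δ and 158 to 258 CPM in wild-type, and was called in none of the mutant comparisons with wild-type. Its log2 fold change in lsd1-ΔHMG was -0.50 at 30°C and 0.23 at 37°C. nmt1 lies within the antisense RNA SPNCRNA.1234, which was at 32.8 to 54.6 CPM in lsd1-ΔHMG, 33.3 to 62.9 CPM in set1Δ and 62.2 to 91.0 CPM in wild-type, so that the antisense row was above nmt1 in every library. The gene cdb4 covers 36.9% of thi4 on the other strand and was at 208 to 663 CPM. The libraries were strand-specific per the labels. Among 199 protein-coding genes that lie wholly within another on the opposite strand, the inner gene had over 2 times the count of the outer in 49. This nesting was read from ASM294v3, while the counts were made on ASM294v2, where the extent of a gene can differ. These pairs therefore do not settle whether reads were counted by strand, and reads of antisense neighbours within the 10 genes were not tested for.

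Further genes of both pathways were taken from lists. Of 8 other phosphate genes, 3 were called higher in lsd1-ΔHMG than in wild-type at 30°C and 4 at 37°C, and in set1Δ 1 and 3, with none lower in any of the 4. In these 4 comparisons, taken in that order, 24.4%, 25.4%, 21.1% and 18.6% of all features were called higher. After the GC and length correction the counts of the 8 were 1, 2, 1 and 3. The median of the list on the log2 scale was 0.79 at 30°C and 1.05 at 37°C for lsd1-ΔHMG, and 0.08 at 30°C and 0.27 at 37°C for set1Δ. Named by the largest value in any comparison, the phosphate transporter gene pho842 was at 364 and 243 CPM in lsd1-ΔHMG at 37°C, against 31.9 and 25.9 CPM in wild-type (log2 fold change 3.39). The transporter gene pho841 was at 600 and 602 CPM in the same mutant at 37°C, against 73.1 and 73.5 CPM (3.04). The phosphatase gene SPBPB2B2.06c had its largest value in the change of the set1Δ difference with temperature (2.76), which was 0.04 with the wild-type libraries of the other label. vtc4, for the polymerase of the vacuolar polyphosphate complex, was at 142 and 117 CPM in lsd1-ΔHMG at 30°C, against 44.1 and 42.6 CPM in wild-type (1.58), but was no longer called after the GC and length correction (0.84) or against the wild-type libraries labelled 37°C (0.69). nrf1, for another subunit of that complex, was at 427.7 and 449 CPM in lsd1-ΔHMG at 30°C, against 1188 and 1193 CPM in set1Δ (-1.44).

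The list of 15 regulators of phosphate genes holds factors of RNA elimination, 3′ end processing and inositol pyrophosphate signalling. In lsd1-ΔHMG 7 of the 15 were called higher at each temperature and none lower, and in set1Δ 2 were called higher and 1 lower at 30°C, and 2 higher and none lower at 37°C. Over all features the shares called higher were 24.4%, 25.4%, 21.1% and 18.6% in the same order, and 11.5% were called lower in set1Δ at 30°C. Corrected for GC content and length, 4 were higher and 1 lower in lsd1-ΔHMG at 30°C, 3 higher and 1 lower at 37°C, and 1 higher and 1 lower in set1Δ at each temperature. Against the wild-type libraries of the other label these counts in set1Δ were 5 at 30°C and 0 at 37°C. mmi1, for the RNA-binding protein that marks meiotic transcripts for elimination, was at 51.9 and 48.6 CPM in set1Δ at 37°C, against 251 and 271 CPM in set1Δ at 30°C (log2 fold change -2.38). ppn1, for a subunit of the phosphatase module of the cleavage and polyadenylation factor, was at 38.2 and 33.2 CPM in lsd1-ΔHMG at 37°C, against 6.93 and 6.96 CPM in wild-type (2.36). The inositol pyrophosphate kinase gene asp1 was at 98.99 and 100.1 CPM in the same mutant at 37°C, against 20.1 and 18.6 CPM (2.36). The ubiquitin ligase gene pqr1 averaged 349.5 ± 2.85 CPM in lsd1-ΔHMG at 30°C, against 97.5 ± 3.48 CPM in wild-type (SD, n = 2 each), with a log2 fold change of 1.84. red1, for a core protein of the nuclear RNA elimination complex, was at 188 and 171 CPM in lsd1-ΔHMG at 37°C, against 60.6 and 52.4 CPM in wild-type (1.67). After the GC and length correction red1 (0.81) and asp1 (0.93) were no longer called.

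Of 8 other genes of thiamine and pyridoxine metabolism, 4 were called higher and 1 lower in lsd1-ΔHMG at 30°C, and 4 higher at 37°C. In set1Δ 1 was called higher and 1 lower at 30°C, and 2 higher at 37°C, and with the wild-type libraries of the other label 4 were called at each temperature. The shares of all features called higher were again 24.4%, 25.4%, 21.1% and 18.6% in this order, and 18.1% were lower in lsd1-ΔHMG at 30°C. Corrected, 4 of the 8 were higher at 30°C and 3 at 37°C in lsd1-ΔHMG with none lower, and in set1Δ 1 was higher and 1 lower at 30°C and 3 were higher at 37°C. The pyridoxal phosphate synthase gene snz1 was at 693 and 608 CPM in lsd1-ΔHMG at 37°C, against 36.4 and 35.3 CPM in wild-type (log2 fold change 4.18). The pyrimidine kinase gene SPBP8B7.18c was at 55.1 and 53.9 CPM in lsd1-ΔHMG at 37°C, against 10.5 and 10.1 CPM in wild-type (2.40). A further gene annotated as such a kinase, SPCC18B5.05c, was at 92.3 and 101 CPM in set1Δ at 37°C, against 24.6 and 22.5 CPM at 30°C (2.04). SPBC530.07c, of the TENA/THI family, was at 47.6 and 41.4 CPM in set1Δ at 30°C, against 155 and 154 CPM in wild-type (-1.79), and the vitamin transporter gene bsu1 was at 25.5 and 23.4 CPM in lsd1-ΔHMG at 30°C, against 8.23 and 7.32 CPM in wild-type (1.65).

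A last list holds 9 genes for enzymes that use thiamine pyrophosphate. Of these, 6 were called higher in lsd1-ΔHMG at 30°C and 7 at 37°C with none lower, and in set1Δ 3 higher and 2 lower at 30°C, and 6 higher and 2 lower at 37°C. The same shares of all features apply, with 11.5% lower in set1Δ at 30°C and 5.55% at 37°C. At 37°C the median of the 9 on the log2 scale was 2.41 for lsd1-ΔHMG, against -0.06 for all features, and 1.71 for set1Δ, against 0.01. The pyruvate decarboxylase gene pdc101 was at 1556 and 1139 CPM in set1Δ at 37°C, against 38.7 and 45.2 CPM in wild-type (log2 fold change 5.01). The transketolase gene SPBC2G5.05 was at 443 and 314 CPM in the same libraries, against 12.4 and 14.1 CPM (4.84). pdc201 had its largest value, 3.45, in the change of the set1Δ difference with temperature, and with the wild-type libraries of the other label that change was -2.01. The acetolactate synthase gene ilv1 and the pyruvate dehydrogenase subunit gene pda1 differed by 2.84 and 2.81 on the log2 scale between lsd1-ΔHMG and wild-type at 37°C. These enzymes belong largely to central carbon metabolism, as tdh1 does. After the GC and length correction 2 of the 9 were called higher and 1 lower in lsd1-ΔHMG at 30°C, and 3 higher and 2 lower at 37°C. In set1Δ 1 was then higher and 3 lower at 30°C, 4 were higher and 2 lower at 37°C, and ilv1 in lsd1-ΔHMG at 37°C (0.87) was not called.

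Last, the tested protein-coding genes were ranked by how closely their profile over the 6 condition means followed that of pho1 or of nmt1, as the root mean square difference of log2 CPM centred on its own mean. For pho1 the nearest of 5094 genes outside the 10 were the pyruvate kinase gene pyk1 (0.40), snz1 (0.41) and the glucose-6-phosphate isomerase gene pgi1 (0.42), where the median of all was 1.95. Among the 10, nmt1 (0.78), pho7 (0.79) and tgp1 (0.84) came nearest to pho1, and thi1 was the farthest (2.11). For nmt1 the nearest were rgs1, for a regulator of G-protein signalling (0.19), fyu1, for a UTP-glucose-1-phosphate uridylyltransferase (0.24), and the arginase gene car1 (0.26), where the median was 1.42. Among the 10, pho7 (0.59), pho84 (0.65), tgp1 (0.65), the thiamine-repressed pho4 (0.78) and pho1 (0.78) lay nearest to nmt1, followed by thi2 (1.12).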

How the data were processed

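Polyadenylated RNA of whole cells was sequenced by the study from strand-specific libraries. Per the labels and the methods, the authors trimmed reads with Trimmomatic 0.39, aligned them with STAR to ASM294v2 and assigned them with featureCounts by fraction, and the deposited values are expected counts without normalization. Since 73.7% to 83.6% of them in a library had decimals, the tests used the nearest whole numbers. Of 34 value columns, 12 were used and 22 were not used here. Depth was 27642384 to 34843653 counts per library, and 2 libraries per condition limit the precision.

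Groups came from the labels. All 12 libraries were fitted together in R 4.3.3 with edgeR 4.0.16 (TMM factors, filterByExpr by condition, robust quasi-likelihood fit, Benjamini-Hochberg adjustment over 6904 features). Each standard error is the log2 fold change divided by the square root of F. There were 11 comparisons. The alternatives were other scalings, DESeq2 1.42.0, limma-voom (limma 3.58.1), other filters, a limit of 2 on the log2 fold change, only the libraries compared, other wild-type references, a replicate block, offsets along GC content and length fitted per library, and each library left out in turn. The procedure was tested on simulated data. Tables and figures used python 3.11.15, pandas 2.3.3 and matplotlib 3.10.9.

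The 10 genes and the lists were chosen with earlier results of these data known. The named genes are the 10, the first 5 genes of each list by their largest called change, RNAs named prt, prt2 or nc-tgp1, label checks (set1, lsd1, hsp16) and the 3 nearest profiles to pho1 and nmt1. 6846 features (94.2%) matched RefSeq ASM294v3, which gave names, GC content, length and sequence. The libraries of a condition differed by more than sampling noise, with a chi-square of 13.8 to 63.0 per degree of freedom.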

Additional observations from a re-analysis of the deposited data

Results flagged for a closer look

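In 8 cases edgeR's test called a change with temperature in the difference between a mutant and wild-type, by the labels. For lsd1-ΔHMG the change on the log2 scale was 1.76 for tgp1 (adjusted p = 3.3e-07), 1.19 for pho84 (adjusted p = 1.7e-05) and 1.16 for pho1 (adjusted p = 5.1e-05). For set1Δ it was 3.03 for tgp1 (adjusted p = 8.4e-10), 1.86 for pho1 (adjusted p = 2.1e-07), 1.45 for pho7 (adjusted p = 1.9e-05), 1.22 for pho84 (adjusted p = 5.3e-06) and 1.21 for pho4 (adjusted p = 0.00015). All 8 rest on the wild-type libraries, in which hsp16 was lower at the label 37°C than at 30°C with a log2 fold change of -2.87, and none of the 8 was called in that direction with the wild-type libraries of the other label. For lsd1-ΔHMG the values were then -2.28 for tgp1, 0.75 for pho84 and -1.15 for pho1, and for set1Δ -1.01 for tgp1, -0.44 for pho1, 0.03 for pho7, 0.78 for pho84 and -0.12 for pho4. With 2 libraries per condition, single libraries that stand apart within a condition were not tested for.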

How the results depend on the processing

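Over the alternatives, 2496 of 2740 log2 values of the 10 genes kept their direction and their side of the threshold, 81 were no longer called, 51 became called and 112 changed sign. Of those 112, 6 belonged to values called in the report, all with the wild-type libraries of the other label, namely thi1 for set1Δ against wild-type at 37°C and the changes with temperature of tgp1 and pho1 in both mutants and of pho4 in set1Δ. The causes of these changes were not tested. Library totals and the wild-type libraries of the other label were added as alternatives after the data were seen. The replicate block changed none of the 110 calls of the 10 genes (6 of 10 for lsd1-ΔHMG against wild-type at both temperatures). Same-numbered libraries deviated together with a correlation over 0.1 in 9 of 15 pairs of conditions (from -0.23 to 0.48). The report's fit holds no term for the replicate number, and what lies behind these correlations was not tested. Of the named genes of the lists, 499 of 512 values kept their call, 12 lost it and 1 changed sign (pdc201). Over all features a limit of 2 called 147 to 1080, against 1024 to 3101 at a limit of 1. With upper-quartile factors, 1093 features were called higher and 1196 lower for 37°C against 30°C in set1Δ (in the report's fit 786 and 1441). With TMM factors from protein-coding genes, 1474 features were called higher and 1660 lower for lsd1-ΔHMG against wild-type at 30°C (in the report's fit 1683 and 1248), 1487 and 1720 for lsd1-ΔHMG against wild-type at 37°C (1756 and 1056), 217 and 869 for 37°C against 30°C in lsd1-ΔHMG (309 and 715) and 463 and 1153 for lsd1-ΔHMG against set1Δ at 37°C (831 and 780). With the GC and length correction, 1101 features were called higher and 1069 lower for lsd1-ΔHMG against wild-type at 37°C (in the report's fit 1756 and 1056), 1013 and 1001 for set1Δ against wild-type at 30°C (1458 and 795), 882 and 710 for set1Δ against wild-type at 37°C (1287 and 383), 609 and 858 for 37°C against 30°C in wild-type (383 and 1098) and 597 and 565 for the change of the lsd1-ΔHMG difference with temperature (832 and 442). With library totals as scaling, 811 features were called higher and 1374 lower for set1Δ against wild-type at 30°C (in the report's fit 1458 and 795), 2008 and 790 for 37°C against 30°C in set1Δ (786 and 1441), 823 and 839 for 37°C against 30°C in wild-type (383 and 1098), 2465 and 1104 for lsd1-ΔHMG against set1Δ at 30°C (1341 and 1760), 607 and 668 for the change of the lsd1-ΔHMG difference with temperature (832 and 442) and 1636 and 945 for the change of the set1Δ difference with temperature (1301 and 1237). TMM factors from protein-coding genes moved the median of all features by -0.25 to -0.02, library totals by -0.34 to 0.49 and the GC and length correction by -0.17 to 0.12. The depth put at least 46 counts behind each value, and 2 libraries per condition limit the precision.

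With the GC and length correction the number called of the 10 was 2 for lsd1-ΔHMG against wild-type at 30°C, 1 for set1Δ against wild-type at 30°C, 0 for 37°C against 30°C in set1Δ, 3 for lsd1-ΔHMG against set1Δ at 30°C, 1 for lsd1-ΔHMG against set1Δ at 37°C, 1 for the change of the lsd1-ΔHMG difference with temperature and 2 for the change of the set1Δ difference with temperature. With a limit of 2 on the log2 scale the number called of the 10 was 1 for set1Δ against wild-type at 30°C, 4 for set1Δ against wild-type at 37°C, 0 for 37°C against 30°C in set1Δ, 1 for 37°C against 30°C in wild-type, 2 for lsd1-ΔHMG against set1Δ at 30°C, 0 for lsd1-ΔHMG against set1Δ at 37°C, 0 for the change of the lsd1-ΔHMG difference with temperature and 1 for the change of the set1Δ difference with temperature. With the mean of both wild-type conditions as reference the number called of the 10 was 5 for set1Δ against wild-type at 30°C. With the wild-type libraries of the other temperature label as reference the number called of the 10 was 7 for set1Δ against wild-type at 30°C and 5 for the change of the lsd1-ΔHMG difference with temperature. With library totals as scaling the number called of the 10 was 2 for 37°C against 30°C in lsd1-ΔHMG, 9 for 37°C against 30°C in set1Δ and 1 for the change of the lsd1-ΔHMG difference with temperature. With upper-quartile factors the number called of the 10 was 5 for 37°C against 30°C in set1Δ. With TMM factors from protein-coding genes the number called of the 10 was 1 for 37°C against 30°C in set1Δ. With a mean count of 50 or more as filter the number called of the 10 was 1 for 37°C against 30°C in set1Δ. With each library left out in turn, the number called lay between 0 and 1 for 37°C against 30°C in lsd1-ΔHMG, between 0 and 4 for 37°C against 30°C in set1Δ, between 2 and 4 for the change of the lsd1-ΔHMG difference with temperature, between 3 and 5 for the change of the set1Δ difference with temperature, between 5 and 6 for lsd1-ΔHMG against set1Δ at 30°C, between 2 and 5 for lsd1-ΔHMG against set1Δ at 37°C, between 3 and 4 for set1Δ against wild-type at 30°C and between 6 and 7 for set1Δ against wild-type at 37°C.

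With the GC and length correction the log2 value changed sign to thi2 -0.13, thi4 -0.36 and thi9 -0.62 for lsd1-ΔHMG against wild-type at 30°C, to thi2 -0.84, thi4 -0.91 and thi9 -0.87 for lsd1-ΔHMG against wild-type at 37°C, to pho84 0.031 for 37°C against 30°C in wild-type, to pho4 -0.21 and thi9 -0.34 for lsd1-ΔHMG against set1Δ at 30°C, to pho7 -0.36, pho4 -0.29 and thi4 -0.077 for lsd1-ΔHMG against set1Δ at 37°C, to nmt1 -0.42 and thi9 -0.24 for the change of the lsd1-ΔHMG difference with temperature, to nmt1 -0.23 and thi2 -0.54 for the change of the set1Δ difference with temperature. With the mean of both wild-type conditions as reference the log2 value changed sign to thi4 -0.29, thi9 -0.11 and thi1 -0.28 for lsd1-ΔHMG against wild-type at 30°C, to thi1 0.70 for lsd1-ΔHMG against wild-type at 37°C, to tgp1 0.71 for set1Δ against wild-type at 30°C, to thi2 0.074, thi4 0.16 and thi9 0.025 for set1Δ against wild-type at 37°C. With the wild-type libraries of the other temperature label as reference the log2 value changed sign to thi4 -0.85, thi9 -0.42 and thi1 -1.03 for lsd1-ΔHMG against wild-type at 30°C, to thi1 1.45 for lsd1-ΔHMG against wild-type at 37°C, to tgp1 1.72 for set1Δ against wild-type at 30°C, to thi2 0.34, thi4 0.72, thi9 0.34 and thi1 0.41 for set1Δ against wild-type at 37°C, to pho1 -1.15, tgp1 -2.28, pho7 -0.69, pho4 -0.35, thi2 0.81, thi4 1.962 and thi1 2.48 for the change of the lsd1-ΔHMG difference with temperature, to pho1 -0.44, tgp1 -1.01, pho4 -0.12, thi4 2.12, thi9 1.08, thi1 2.60 and pdc201 -2.01 for the change of the set1Δ difference with temperature. With RLE factors the log2 value changed sign to thi4 -0.091 for lsd1-ΔHMG against wild-type at 37°C, to pho1 -0.074 and pho7 -0.062 for 37°C against 30°C in lsd1-ΔHMG, to thi9 -0.037 for the change of the lsd1-ΔHMG difference with temperature. With upper-quartile factors the log2 value changed sign to thi4 -0.014 for lsd1-ΔHMG against wild-type at 37°C, to pho1 -0.022 and pho7 -0.0091 for 37°C against 30°C in lsd1-ΔHMG, to thi4 0.031 for the change of the set1Δ difference with temperature. With TMM factors from protein-coding genes the log2 value changed sign to thi4 -0.26 for lsd1-ΔHMG against wild-type at 37°C, to pho1 -0.098 and pho7 -0.086 for 37°C against 30°C in lsd1-ΔHMG, to pho4 -0.064 for lsd1-ΔHMG against set1Δ at 37°C, to thi9 -0.0092 for the change of the lsd1-ΔHMG difference with temperature. With DESeq2 the log2 value changed sign to thi4 -0.091 for lsd1-ΔHMG against wild-type at 37°C, to pho1 -0.074 and pho7 -0.062 for 37°C against 30°C in lsd1-ΔHMG, to thi9 -0.037 for the change of the lsd1-ΔHMG difference with temperature. With a mean count of 50 or more as filter the log2 value changed sign to thi4 -0.0096 for lsd1-ΔHMG against wild-type at 37°C, to pho1 -0.017 and pho7 -0.00496 for 37°C against 30°C in lsd1-ΔHMG. With library totals as scaling the log2 value changed sign to thi4 -0.11 for lsd1-ΔHMG against wild-type at 37°C, to pho84 -0.059 for set1Δ against wild-type at 30°C, to pho84 0.059 for 37°C against 30°C in wild-type, to nmt1 -0.059 and thi9 -0.13 for the change of the lsd1-ΔHMG difference with temperature, to thi4 0.10 and thi9 0.046 for the change of the set1Δ difference with temperature. With a fit of the compared libraries alone the log2 value changed sign to thi1 0.00084 for lsd1-ΔHMG against wild-type at 37°C, to pho1 -0.059 and pho7 -0.046 for 37°C against 30°C in lsd1-ΔHMG. With limma-voom the log2 value changed sign to pho1 -0.00098 for 37°C against 30°C in lsd1-ΔHMG. For the change of the lsd1-ΔHMG difference with temperature the log2 value, with each library left out in turn, ranged from -0.012 to 0.25 for nmt1 and from -0.086 to 0.13 for thi9. For 37°C against 30°C in lsd1-ΔHMG the log2 value, with each library left out in turn, ranged from -0.14 to 0.14 for pho1 and from -0.17 to 0.18 for pho7. For lsd1-ΔHMG against set1Δ at 37°C the log2 value, with each library left out in turn, ranged from -0.061 to 0.31 for pho4. For the change of the set1Δ difference with temperature the log2 value, with each library left out in turn, ranged from -0.12 to 0.20 for thi2. For lsd1-ΔHMG against wild-type at 37°C the log2 value, with each library left out in turn, ranged from -0.051 to 0.055 for thi4. For set1Δ against wild-type at 30°C the log2 value, with each library left out in turn, ranged from -0.35 to 0.0016 for thi4 and from -0.13 to 0.082 for thi9.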
